A study of Mus musculus with 6 samples.

Results

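The cells described here are 220 heart macrophages among 13140 single-cell barcodes. They were selected on measured values. Barcodes with at least 500 unique molecular identifiers (UMIs, counted RNA molecules) were taken, each barcode core was kept in the library that held most of its UMIs, and a cell was selected when at least 4 of the 7 genes C1qa, C1qb, C1qc, Tyrobp, Fcer1g, Lyz2 and Csf1r had a UMI. Levels of any gene in these cells against the rest of the cells, and the 7 genes of the rule in every comparison, are therefore given as a description and without a test.

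There were 3 control and 3 Dsp_het libraries, from C57BL/6 mice between 3 and 6 months of age, with the whole heart as the tissue. All mice, controls included, carried Wt1CreERT2, an inducible Cre recombinase driven by the promoter of the epicardial gene Wt1, and the Rosa26mTmG reporter, which changes from Tomato to GFP where Cre has acted and in the descendants of those cells. The Dsp_het mice also carried the DspW/F genotype at Dsp, the gene of the desmosomal protein desmoplakin, and the series describes them as a haploinsufficient model of arrhythmogenic cardiomyopathy. Hearts were digested with collagenase II by Langendorff perfusion, cardiac myocytes were removed, and sorted EGFP-positive cells were loaded on 10x Genomics Chromium. The labels do not say whether each sample is 1 animal. Xist, an RNA of female cells, had a UMI in 63 of 68 macrophages of control 3 and 19 of 20 of Dsp_het 2. It had none in those of the remaining libraries. The samples of each group thus differed in sex, and the variation that the p-values below reflect is not technical only. How many animals it covers is not known, and part of it may be technical. How the Cre was activated is not given in the sources used here, and the submitters name the sorted cells as derived from the epicardium, which macrophages are not known to be.

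Macrophages are the main resident phagocytes of the heart. They take up dying cells and debris, make complement C1q, and present peptides on MHC class II molecules to T cells. A long-lived resident population that maintains itself in the tissue is known by Timd4, Lyve1 and Folr2, while cells that come from blood monocytes are known by the chemokine receptor Ccr2, and both kinds can carry MHC class II to differing degrees. The growth factor receptor Csf1r keeps macrophages alive, and the transcription factor Spi1 (PU.1) sets much of their gene expression by binding purine-rich DNA around the letters GAGGAA.

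The promoters below belong to genes that mark these cells, and are shown because a short motif recurs in them. Promoter sequence came from RefSeq (GRCm38.p6), and 23 of the 30 genes that led the macrophages over all other cells had an entry. In the 250 bases before the transcription start, searched on both strands, GAGGAA stood in 14 of these 23 genes (60.9%), against 25.9% of 27025 genes with an entry. The longer motif AGGAAGT, which shares the letters AGGAA with it, stood in 12 of the 23 (52.2%), against 8.80% of all genes. For MHC class II, 6 of 9 genes had an entry, and all 6 held CCAAT, the letters of the Y box bound by NF-Y, against 37.5% of all genes. A match is a description of the letters and was not tested for binding. In the first 3 sequences the capitals mark GAGGAA or its complement, and in the last 2 they mark CCAAT or its complement. C1qb (minus strand, chr4:136886201-136886450) and C1qc (minus strand, chr4:136892915-136893164) encode chains of complement C1q, Pf4 (plus strand, chr5:90772185-90772434) encodes a chemokine, and H2-Aa (minus strand, chr17:34287824-34288073) and H2-Eb1 (plus strand, chr17:34305617-34305866) encode MHC class II chains. Each runs 5′ to 3′ and ends at the base before the start.
C1qb: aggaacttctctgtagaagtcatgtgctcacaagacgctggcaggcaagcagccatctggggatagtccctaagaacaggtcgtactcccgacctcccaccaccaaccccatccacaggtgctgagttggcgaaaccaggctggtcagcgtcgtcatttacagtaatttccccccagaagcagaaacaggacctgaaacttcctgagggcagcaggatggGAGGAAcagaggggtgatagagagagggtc
C1qc: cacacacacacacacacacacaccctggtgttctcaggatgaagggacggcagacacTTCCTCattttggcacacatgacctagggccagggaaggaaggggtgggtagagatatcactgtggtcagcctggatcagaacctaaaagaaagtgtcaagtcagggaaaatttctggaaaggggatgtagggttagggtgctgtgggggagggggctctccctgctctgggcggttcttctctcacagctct
Pf4: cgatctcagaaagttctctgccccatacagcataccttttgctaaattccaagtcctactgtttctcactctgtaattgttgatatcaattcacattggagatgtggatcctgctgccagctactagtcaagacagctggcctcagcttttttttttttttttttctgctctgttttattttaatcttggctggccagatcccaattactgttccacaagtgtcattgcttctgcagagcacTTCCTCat
H2-Aa: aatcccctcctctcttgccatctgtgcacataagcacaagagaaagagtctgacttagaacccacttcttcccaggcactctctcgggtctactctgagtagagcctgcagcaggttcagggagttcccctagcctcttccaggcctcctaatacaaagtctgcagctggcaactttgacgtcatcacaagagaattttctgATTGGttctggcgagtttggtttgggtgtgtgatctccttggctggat
H2-Eb1: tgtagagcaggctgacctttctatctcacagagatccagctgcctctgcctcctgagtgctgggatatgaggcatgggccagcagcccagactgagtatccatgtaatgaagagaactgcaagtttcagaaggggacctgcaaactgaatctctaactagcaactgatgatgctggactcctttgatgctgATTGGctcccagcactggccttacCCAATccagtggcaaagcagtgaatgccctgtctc

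The selected cells had the RNA of macrophages. Of the 220, 203 had all 7 genes of the rule, and 8, 4 and 5 had 4, 5 and 6 of them. Just outside the rule, 27 barcodes had 3 of the genes and 64 had 2. The 8 cells with exactly 4 genes together held 121 CPM (UMIs scaled to a common total for each set of cells) of C1qa and 1487 CPM of Lyz2, and the 27 with 3 genes 74.2 and 671.5 CPM. The cells with all 7 reached 7772 and 15879 CPM. The 3 C1q genes lie side by side on chromosome 4, with C1qa at chr4:136895917-136898803 (GRCm38, minus strand). Most of the cells were thus far from the threshold, and the few near it held little C1q.

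The genes that led the list were complement, lysosome, antigen presentation and Fc receptor genes. Lyz2, lysozyme of myeloid cells, stood at 15236 CPM in macrophages and 10.7 CPM in the other 12920 cells, and part of its reads could belong to its close copy Lyz1, since the counting method is not given in the sources used here. C1qa stood at 7415 against 2.82 CPM. Cd74, the chaperone of MHC class II, stood at 15001 against 111 CPM. The chemokine Pf4 reached 3403 CPM, Retnla, a secreted resistin-like protein, 2253 CPM, and the adaptor chains Fcer1g and Tyrobp, which signal for Fc and other immune receptors, 2404 and 2142 CPM. Further down were Ctss and Ctsc, proteases of the lysosome (1388 and 1364 CPM), Mrc1, the mannose receptor (1095 CPM), Folr2, a folate receptor (932 CPM), and Cybb, a subunit of the phagocyte NADPH oxidase (509 CPM). Spi1 had a UMI in 201 of the 220 cells, and Adgre1, the F4/80 antigen, in 193.

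Genes of classical blood monocytes were mostly absent, although the label given to these cells covers monocytes too. The rule bears on this, since a cell without C1q is selected only if Tyrobp, Fcer1g, Lyz2 and Csf1r all have a UMI, so monocytes in the hearts may have been passed over. Of 14 genes of monocytes and monocyte-derived cells, Ly6c2, Chil3, Hp, F10 and Ly6i had no UMI in any of the 220 cells, and a count of 0 allows a share of up to 1.36% of cells with a UMI (counting error only). Plac8, a further monocyte gene, had 15 UMIs in 3 cells. The list was led by S100a4, Ccr2 and Lyz1, with a summed level of 849.99, 286 and 289 CPM in controls and 0, 527 and 559 CPM in Dsp_het. A list of nonclassical monocytes stood at 1838 CPM in all 220 cells, led by Fabp4 (1516 CPM), which endothelial cells also express. Without the mixed cells described below it stood at 408 CPM, of which Fabp4 made up 104 CPM. S100a8 and S100a9 of neutrophils, Cd3e and Nkg7 of T and NK cells, Cd79a and Ms4a1 of B cells and Cpa3 and Tpsb2 of mast cells also had no UMI. The selected cells are called macrophages below, and nothing is said of monocytes outside them.

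Many barcodes of these libraries occurred in more than 1 library, and this weighed on macrophages. The libraries held 7573157 to 17083660 UMIs. In all, 663 barcodes met the rule, and 443 of them were repeats of a barcode core that had more UMIs in another library. For 438 of the 443 the library with most UMIs held a macrophage, and the repeat held a median of 5.35% of that cell's UMIs. Of the 220 macrophages, 144 had a core that occurred in more than 1 library. Dsp_het 1 stood apart: 104 of its barcodes met the rule, 102 of them were repeats, and 2 cells of 883 and 4351 UMIs were left. With 2 cells, Dsp_het 1 was not used in tests of genes, which compared 3 control with 2 Dsp_het libraries.

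The macrophage share was alike in the 3 control libraries and spread widely among the 3 Dsp_het libraries. It was 2.00% (50 of 2496 cells), 2.10% (35 of 1669) and 2.27% (68 of 2996) in control 1, 2 and 3. In Dsp_het 1, 2 and 3 it was 0.0665% (2 of 3009), 1.099% (20 of 1820) and 3.91% (45 of 1150). The controls lay between the lowest and the highest Dsp_het library, so the groups overlapped. The 95% Clopper-Pearson intervals, which cover counting error only, were 1.49% to 2.63%, 1.46% to 2.90% and 1.77% to 2.87% in controls and 0.00805% to 0.240%, 0.672% to 1.69% and 2.87% to 5.20% in Dsp_het. The means were 2.12% ± 0.135 (SD, n = 3) and 1.69% ± 1.99 (SD, n = 3), a log2 ratio of -0.33, with p = 0.7 in a two-sided exact permutation test that cannot go below 0.1. With the repeated barcodes included the shares were 3.84%, 3.04% and 3.95% in controls and 2.86%, 4.66% and 6.18% in Dsp_het, a log2 ratio of 0.34 (exact p = 0.5), and without Dsp_het 1 the ratio was 0.24. The direction thus depended on how repeats were treated and on that 1 library.

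**Figure D1:**
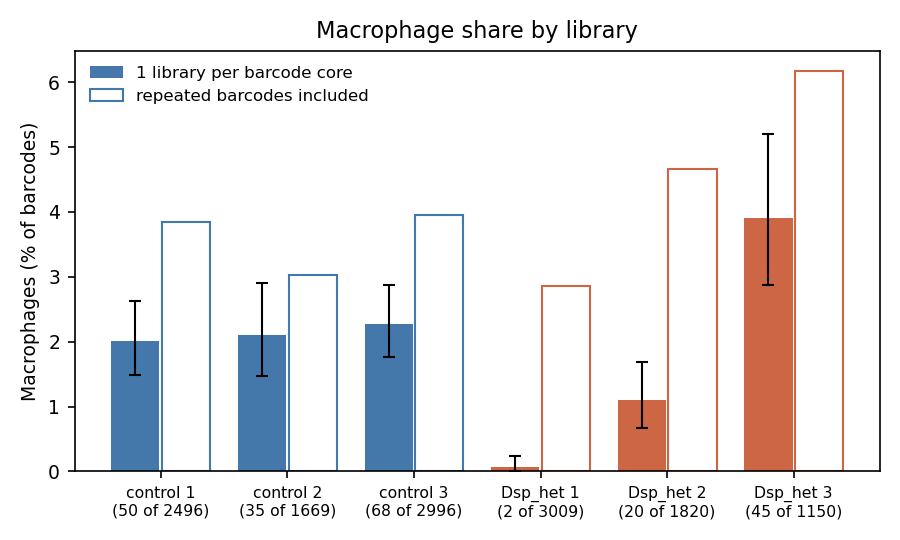
Macrophages as a percentage of barcodes (vertical axis) in each library (horizontal axis), with the count of macrophages and of kept barcodes below. Filled bars count each barcode core in 1 library, with 95% Clopper-Pearson intervals, open bars include the repeats, and the Dsp_het bars span 0.0665% to 3.91% around the controls at 2.00% to 2.27%.

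Macrophages were deep cells, with a median of 10693 UMIs and 2888.5 genes, against 4006.5 UMIs in the other cells. The 9989 cells that had at least 4 of 7 endothelial genes (Pecam1, Cdh5, Kdr, Egfl7, Emcn, Eng and Tie1) and were not selected, called endothelial-rule cells here, had a median of 3855 UMIs. Among the macrophages, 30 also met that endothelial rule. They were 3, 2 and 13 cells in the controls and 0, 5 and 7 in Dsp_het 1, 2 and 3, and are called mixed cells. Their median was 15330 UMIs against 10095.5 for the other 190. They held both programs at once: summed, C1qa stood at 4784 CPM in mixed cells, 8042 CPM in the 190 and 2.81 CPM in endothelial-rule cells. Fabp4, a fatty acid carrier of capillary endothelium, stood at 7445, 104 and 21955 CPM in the same order, and Pecam1, an endothelial junction protein, at 236, 3.92 and 681 CPM. A rule of 4 of 7 fibroblast genes was met by 6 macrophages, some of them mixed cells, and the epicardial rule by 1. No doublet caller was run, and whether the mixed cells are pairs of cells was not tested.

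The sort selected EGFP-positive cells, and macrophages held little reporter RNA outside the mixed cells. GFP had a UMI in 71 of 220 macrophages, in 27 of the 30 mixed cells and in 44 of the other 190. Summed, GFP stood at 880 CPM in mixed cells, 48.5 CPM in the 190 and 3475 CPM in endothelial-rule cells. In the 182 macrophages that met no other cell rule and were not cycling, 52 GFP UMIs in 41 cells gave 27.6 CPM, and the libraries were at 32.8, 9.36 and 30.7 CPM in controls and 0, 37.9 and 29.1 CPM in Dsp_het. At a common depth of 500 UMIs a cell, 5.45% of macrophages and 70.3% of endothelial-rule cells had a GFP UMI. Fabp4, which macrophages free of other cell rules held at 104 CPM against 21955 CPM in endothelial-rule cells, and GFP, at 27.6 against 3475 CPM, were both far below the endothelial level, and the part of free RNA in either was not tested. Fabp4 had a UMI in 61.0% of these 182 cells at a median of 9988.5 UMIs, and in 99.8% of endothelial-rule cells. Wt1 had 8 UMIs in 5 macrophages and Dsp 4 UMIs in 4, so the targeted gene could not be checked in these cells.

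**Figure D2:**
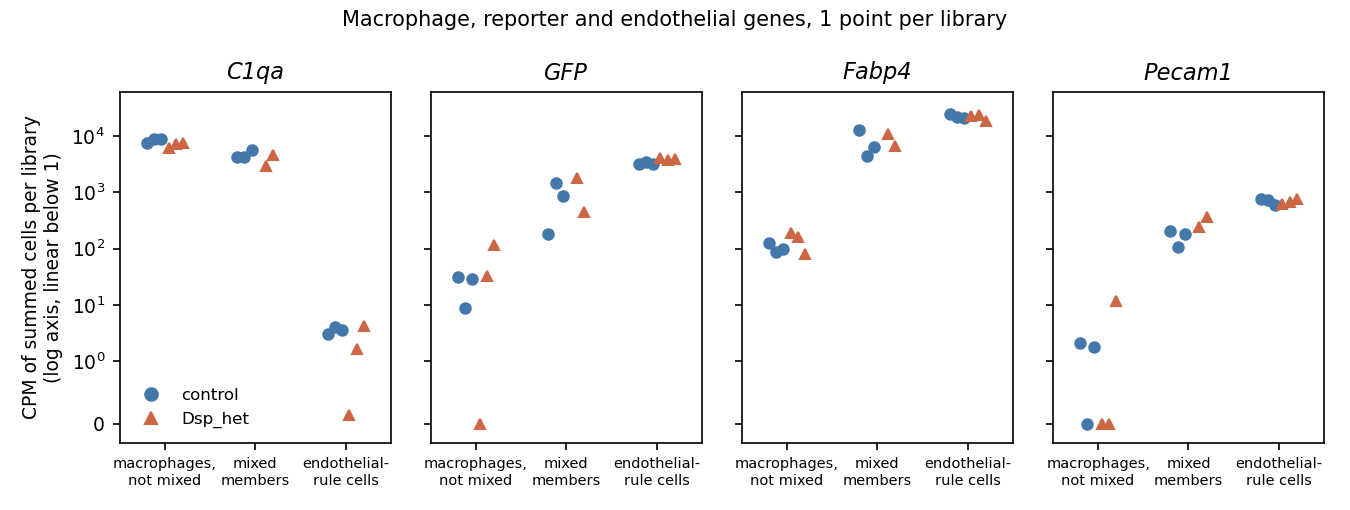
CPM of the summed cells of each library (vertical axis, logarithmic, linear below 1) for C1qa, GFP, Fabp4 and Pecam1 in macrophages that were not mixed, mixed cells and endothelial-rule cells, with circles for control and triangles for Dsp_het libraries. Summed over libraries, mixed cells lie between the other 2 sets in all 4 genes, with GFP at 880 CPM.

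Within the macrophages, genes of resident cells and MHC class II genes ran opposite to each other. Over the 180 cells with at least 2000 UMIs that were not mixed, the summed CPM of 16 resident genes (Pf4, F13a1, Mrc1 and Maf lead them) ranged from 2430 at the 10th to 20643 at the 90th percentile, and that of 9 MHC class II genes from 1507 to 84618. Spearman's rho between the sums was -0.59 over the 180 cells. It was -0.83, -0.30 and -0.61 in control 1, 2 and 3 (44, 33 and 53 cells) and -0.57 and -0.58 in Dsp_het 2 and 3 (15 and 34 cells). The sums share the cells' libraries and depth and are parts of 1 total, and no p is given. Control 2 had the weakest relation and control 1 the strongest, and the sign was the same in these 5 libraries.

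**Figure D3:**
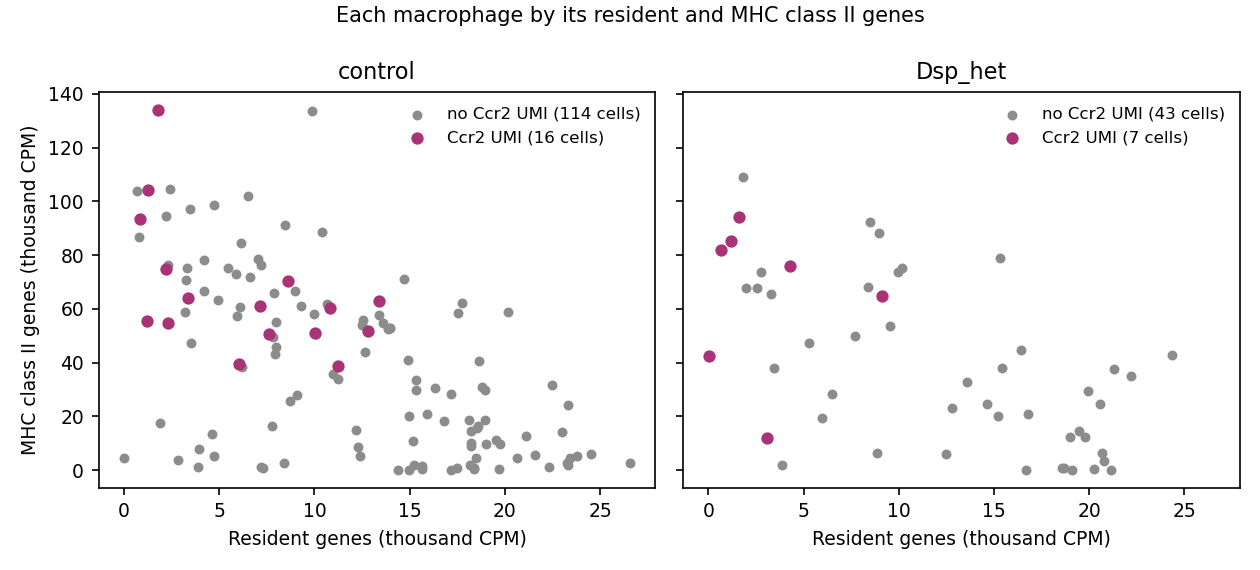
Each point is 1 macrophage that was not mixed and had at least 2000 UMIs, by the summed CPM of 16 resident genes (horizontal axis) and of 9 MHC class II genes (vertical axis), both in units of 1000 CPM, for control and Dsp_het cells. Cells with a Ccr2 UMI (coloured) lie mostly to the left, and Spearman's rho over all 180 cells was -0.59.

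Cells with Timd4, a receptor for phosphatidylserine on dying cells, formed the larger side of this range. For the comparisons within macrophages, the 185 cells that were neither mixed nor cycling were divided by 1 gene at a time, and values are summed CPM without a test. Timd4 had a UMI in 98 of the 185 cells (25, 16 and 33 in controls and 0, 4 and 20 in Dsp_het), at a median of 12797 UMIs against 8083 for the rest, so cells without a UMI can include shallow ones. Ednrb, an endothelin receptor, was 28.6 times as high in Timd4 cells (375 against 7 UMIs), Retnla 11.02 times, Fcna, a ficolin of the lectin complement pathway, 7.18 times, and Lyve1, a hyaluronan receptor, and Vsig4, a complement receptor, 6.65 times each. Folr2 was 3.93 times, Cbr2 3.52 times and the clotting gene F13a1 2.86 times as high. These genes were higher in Timd4 cells in 5 of 5 libraries, except Vsig4, which was so in 4. C1qa, Lyz2 and Csf1r were near equal, at 1.13, 1.17 and 1.11 times. On the other side, Cx3cr1, the fractalkine receptor, was at 0.41 of the level in the remaining cells, Cd52 at 0.35, Cd9 at 0.10 and the cytokine Il1b at 0.17. Cd74 stood at 12833 CPM in Timd4 cells and 21751 CPM in the others, lower in each of the 5 libraries.

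Cells with Ccr2 were few and rich in MHC class II. They were 21 of the 185 (9, 1 and 5 in controls and 0, 2 and 4 in Dsp_het), at a median of 9213 UMIs against 10198.5. S100a6 and S100a4, small calcium-binding proteins known from monocyte-derived cells, were 5.03 and 2.98 times as high, higher in 3 of the 4 libraries with 2 or more such cells. Neither was a trait of Ccr2 cells alone, since S100a4 was also 2.62 times as high in Timd4 cells, in 5 of 5 libraries, and S100a6 1.29 times, in 4 of 5, and 8 of the 21 Ccr2 cells had a Timd4 UMI. Cd52 was 2.59 times as high, Cd74 stood at 28538 against 14414 CPM, and H2-Ab1 was 2.00 times as high, each in 4 of 4 libraries. Folr2 was at 0.18, Lyve1 at 0.27, Retnla at 0.12 and Mrc1 at 0.49 of the level in the other 164 cells. The chemokine Ccl8 had no UMI in the 21 cells, a limit of 14.5 CPM for a count of 0, against 456 CPM in the others, and Ednrb had none against 222 CPM. Csf1r (656 against 1009 CPM) and C1qa (6308 against 8569 CPM) were lower but far from absent.

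**Figure D4:**
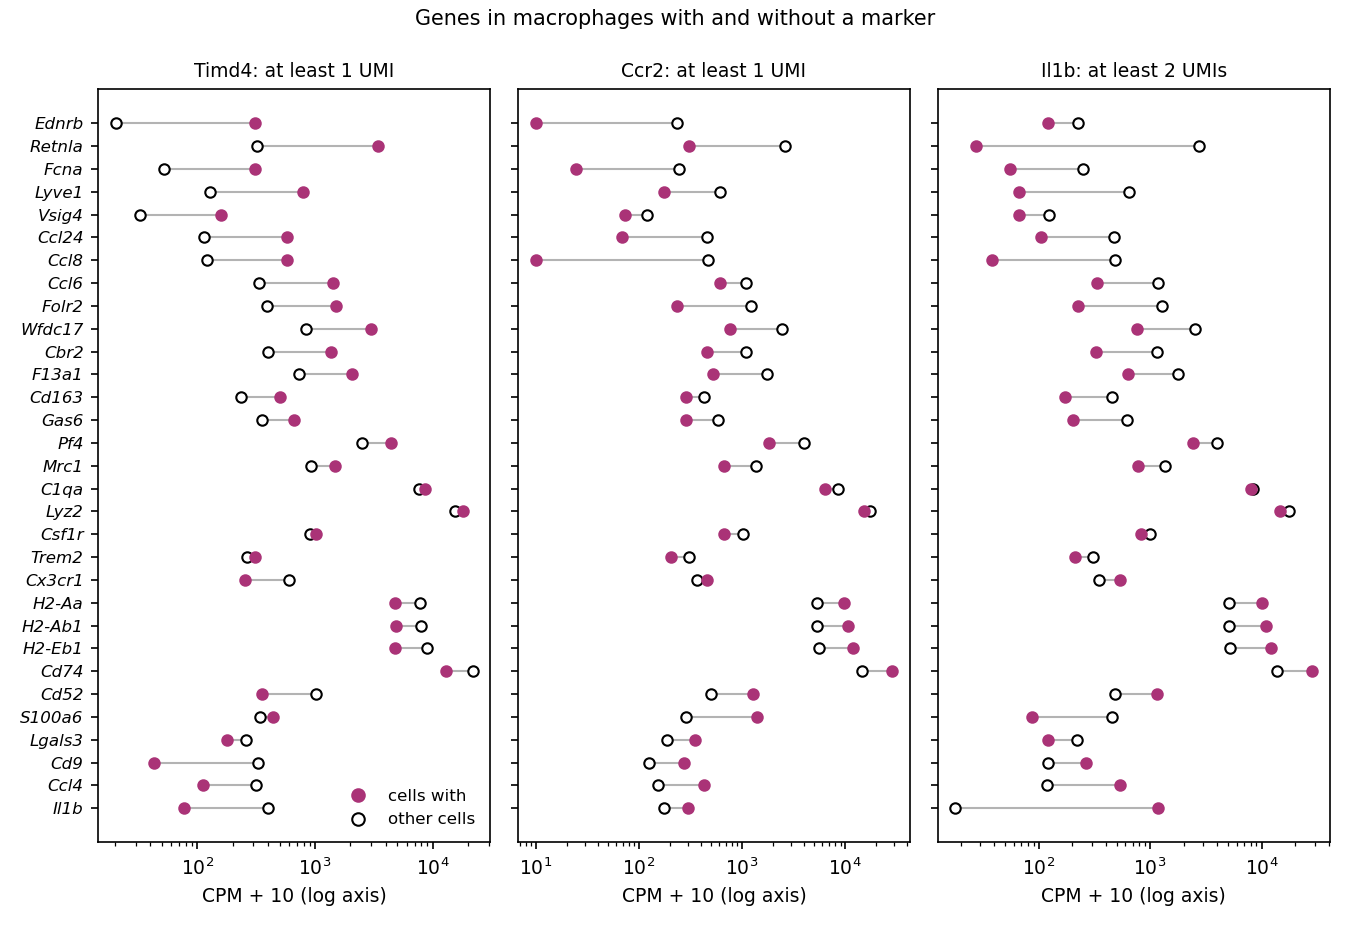
Summed CPM plus 10 (horizontal axis, logarithmic) of 31 genes in macrophages that were neither mixed nor cycling, with filled points for cells that have Timd4, Ccr2 or at least 2 Il1b UMIs and open points for the remaining cells. Ednrb, Retnla and Lyve1 lie to the right in Timd4 cells and to the left in Ccr2 and Il1b cells, while C1qa stays within 0.74 to 1.13 times.

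Il1b, the inflammatory cytokine interleukin 1 beta, was the third gene used. At least 2 Il1b UMIs were found in 31 of the 185 cells (6, 4 and 13 in controls and 0, 4 and 4 in Dsp_het). Ccl4, a chemokine, was 4.87 times as high there, Mmp13, a collagenase, 3.38 times, Cd14, the coreceptor for lipopolysaccharide, 2.10 times and Cd74 2.05 times. Lyve1 was at 0.09, Folr2 at 0.17 and Retnla at 0.01 of the level in the other 154 cells. The set overlapped with the Ccr2 cells: 8 of the 21 Ccr2 cells had at least 2 Il1b UMIs, and Ccr2 was 1.51 times as high in Il1b cells, in 4 of 5 libraries. S100a6 and S100a4, high in the Ccr2 cells, were low here, at 0.17 and 0.057. Cd207, the lectin langerin, had 59 UMIs in these cells and none in the 154, where a count of 0 allows 1.83 CPM, and it was found in 2 of the 5 libraries.

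Ccl2 and its neighbouring chemokines were found in the same cells. The 43 cells with at least 3 UMIs of Ccl2, which draws in monocytes, had 22.4 times the Ccl7 level of the other 142 cells, 2.11 times that of Ccl12 and 2.30 times that of the stress transcription factor Atf3, each in 5 of 5 libraries. H2-Aa was at 0.58. These cells were deeper, with a median of 13311 against 9226.5 UMIs.

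Retnla came from a small number of cells. Its 5698 UMIs lay in 47 of the 220 macrophages, and the 22 cells with most held 94.0% of them. The 29 cells with at least 5 UMIs among the 185 (9, 5 and 8 in controls and 0, 2 and 5 in Dsp_het) had 3.23 times the Fcna, 2.73 times the Ccl6 and 2.496 times the Ccl24 level of the rest, in 5 of 5 libraries. Il1b stood at 2.71 against 222 CPM, Ccl3 at 24.4 against 183 CPM and Cxcl2 at 37.9 against 216 CPM. MHC class II was little different, with Cd74 at 14340 against 16314 CPM.

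The share of macrophages with a given marker was compared between the genotypes after each cell was thinned to 500 UMIs, so that depth is equal. Over 18 markers, 0 had groups that did not overlap, and the smallest raw p was 0.2, for Timd4, in two-sided exact permutation tests (all adjusted p = 1 by Benjamini-Hochberg). Timd4 was found in 8.0%, 2.86% and 10.3% of control and 0%, 5.00% and 2.22% of Dsp_het macrophages. Folr2 was found in 32.0%, 28.6% and 25.0% against 0%, 35.0% and 31.1%, and in 0.0100% of endothelial-rule cells. The value of 0% in Dsp_het 1 rests on 2 cells. Of the 18 markers, Ly6c2, Chil3, Cd209a and S100a9 were at 0% in every library, so their tests could not show a difference. H2-Aa was found in 78.0%, 62.9% and 79.4% against 100%, 85.0% and 60.0%, and in 0.961% of endothelial-rule cells. Without thinning, 51.4% of all macrophages had Timd4, 66.8% Folr2 and 14.1% Ccr2, and Folr2 and Cd74 then had groups that did not overlap. Folr2 was then at 72.0%, 68.6% and 67.6% against 0%, 60.0% and 64.4% (exact permutation p = 0.1, the smallest possible, adjusted p = 0.9).

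The RNA of 5 macrophages was that of dividing cells. A cell was called cycling when at least 8 of 13 cell cycle genes had a UMI. There was 1 in each library except Dsp_het 1, and no other macrophage had more than 6 of the genes. Mki67, the proliferation antigen, had 12, 18 and 16 UMIs in the cycling cells of control 1, 2 and 3 and 29 and 79 in those of Dsp_het 2 and 3. This rule was set after the data had been seen. Cycling cells were 2.27% of macrophages and 0.350% of endothelial-rule cells (35), and the macrophages were also the deeper cells. The cycling cell of Dsp_het 3 had 42720 UMIs, more than any other macrophage, and went against the label. It had 4 of the 7 rule genes, no UMI of C1qa, C1qb, C1qc, Adgre1 or Mrc1, and 20 UMIs of Xcr1, 6 of Clec9a, 5 of Flt3 and 35 of Irf8, which are known from dendritic cells. Xcr1 had no UMI in any of the other 219 macrophages. The cycling cell of Dsp_het 2 held 10.8% of the macrophage UMIs of its library.

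Between genotypes, 7 of 6108 genes passed as higher in Dsp_het macrophages (0.115%) and 1 as lower (0.0164%), at an adjusted p under 0.05 in edgeR's quasi-likelihood test with Benjamini-Hochberg adjustment. From the sums alone, a change in the number of cells of a type and a change in RNA per cell cannot be told apart. The cells that held the counts are given below. The genes that rose were 4 of cell division, Cenpe and Cenpf of the kinetochore, Mki67 and the histone H2afx, together with Igfbp5, an insulin-like growth factor binding protein, Ctla2a, a protease inhibitor, and the lincRNA Gm12840. The gene that fell was the interferon-induced Ifi27l2a. Cenpf was at 15.7, 5.30 and 9.15 CPM in controls and 186 and 71.1 CPM in Dsp_het 2 and 3, and Mki67 at 27.5, 47.7 and 26.1 against 142 and 127 CPM. The Dsp_het libraries were above all controls in both. The log2 changes of Cenpe, Cenpf, Mki67 and H2afx were 3.23 ± 0.43, 3.39 ± 0.49, 1.96 ± 0.28 and 1.56 ± 0.25 (SE; edgeR, adjusted p = 0.032, 0.032, 0.032 and 0.0418).

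These counts sat in few cells. The 5 cycling cells held 104 of the 105 UMIs of Cenpf, 80 of the 86 of Cenpe, 154 of the 166 of Mki67 and 114 of the 152 of H2afx. Mki67 and Cenpf are among the 13 genes that define cycling cells. Their place in these cells, and their loss without them, thus follow in part from that rule. In Dsp_het 3 nearly all of these counts came from the cycling cell without C1q described above. It held 79 of the 82 Mki67, 45 of the 46 Cenpf and 56 of the 66 H2afx UMIs of that library's macrophages. With at least 5 rule genes required, which leaves out this cell among others, the log2 change of Mki67 was 0.69 (edgeR adjusted p = 0.922). Ctla2a (17.7, 15.9 and 31.4 CPM in controls, 93.0 and 100.4 CPM in Dsp_het, log2 change 2.00 ± 0.31, edgeR adjusted p = 0.0397) had 107 of its 125 UMIs in mixed cells, and it stood at 549 CPM in endothelial-rule cells. Igfbp5 (log2 change 3.97 ± 0.61, edgeR adjusted p = 0.0397) and Gm12840 (3.83 ± 0.61, edgeR adjusted p = 0.0397) had 42 of 65 and 47 of 62 UMIs in 1 Dsp_het 3 cell of 19112 UMIs, which had all 7 macrophage and all 7 epicardial genes. Without the 5 cycling cells, a set chosen after the data had been seen, no gene passed in either direction in edgeR (369 had an unadjusted p under 0.05). Of the 8 called genes, 3 were then still high enough to be tested, and their log2 changes were not smaller: 4.30 for Igfbp5, 2.08 for Ctla2a and -0.98 for Ifi27l2a (edgeR adjusted p = 0.113, 0.113 and 0.388). With cycling cells kept and in the same 5 libraries, DESeq2 called 7 higher and 1 lower. It shared 5 of the 7 and the lower gene with edgeR, and Ctla2a and H2afx missed its threshold (DESeq2 adjusted p = 0.0568 and 0.137).

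Ifi27l2a differed in kind, since it was spread over 204 of the 220 cells. It was at 2192, 2044 and 1997 CPM in control 1, 2 and 3 and at 1129 and 1364 CPM in Dsp_het 2 and 3, both below every control. Its log2 change was -0.80 ± 0.13 (SE; edgeR adjusted p = 0.0418), and it missed the threshold without mixed cells (-0.59, edgeR adjusted p = 0.153). It lost its call in 12 of 20 alternatives, and the log2 change kept its sign in them, between -0.998 and -0.568. Of 18 interferon genes tested, 6 had a positive change, with a median log2 change of -0.12, and Ifi27l2a was the 1 that passed. Ifitm3, an antiviral membrane protein, was at 2060, 1525 and 2208 against 1280 and 2084 CPM, and the groups overlapped. Over all 6108 genes, 3073 were positive and the median was 0.00.

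Of the next smallest p-values on the lower side, which missed the threshold, those outside the rule belonged to Ctss and the interferon-inducible Ifi202b. Ctss was at 1464, 1552 and 1640 CPM in controls and 978 and 1063 CPM in Dsp_het 2 and 3, a log2 difference of -0.67 ± 0.13 (SE; edgeR adjusted p = 0.103). Ifi202b was at 120, 31.8 and 103 against 22.1 and 0 CPM (-3.89 ± 0.85, edgeR adjusted p = 0.163). In both, Dsp_het 2 and 3 lay below the controls. Of 18 macrophage genes outside the rule, 5 were positive, the median log2 difference was -0.14 and none passed.

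The 7 genes of the rule are given as levels, and log2 changes shown for some of them elsewhere are a description without a test. C1qb was at 7201, 6506 and 6234 CPM in controls and 4255 and 5235 CPM in Dsp_het 2 and 3, and C1qc at 5643, 5238 and 4877 against 3967 and 4064 CPM. C1qa was at 7374, 8325 and 8016 against 5774 and 6789 CPM. Fcer1g was at 2666, 2460 and 2644 against 1784 and 2101 CPM, and Tyrobp at 2398, 2129 and 2240 against 1682 and 1992 CPM. In these 5, Dsp_het 2 and 3 lay below the controls, but how many of all tested genes do so was not counted. The selection used these genes, and mixed cells held less C1qa (4784 CPM) than the other 190 macrophages (8042 CPM). Lyz2 (15284, 17909 and 15064 against 10427 and 15570 CPM) and Csf1r (850, 961 and 766 against 708 and 972 CPM) overlapped.

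Endothelial genes were on the other side in the same libraries. All 16 tested were positive, with a median log2 change of 0.81, and none passed. Their summed level was 1663, 1507 and 3468 CPM in controls and 382, 6407 and 3049 CPM in Dsp_het 1, 2 and 3, and mixed cells were 6.00%, 5.71% and 19.1% of control and 0%, 25.0% and 15.6% of Dsp_het macrophages. Without mixed cells, 4 of these genes were tested, with a median of -0.01. Mixed cells are defined by endothelial genes, so this drop follows in part from their rule. The median of the 18 macrophage genes outside the rule was then -0.03, with 8 positive. Ctss was then at 1397, 1599 and 1825 CPM in controls and 1062 and 1091 CPM in Dsp_het 2 and 3, still without overlap. The part of mixed cells in the lower macrophage genes was not tested further.

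By role, the remaining lists held few called genes. Of 16 resident genes, 9 were positive and the median log2 change was 0.02. Lyve1 was at 468, 323 and 511 against 483 and 535 CPM, Timd4 at 148, 135 and 148 against 106 and 148 CPM, and Folr2 at 1039, 961 and 989 against 589 and 892 CPM, the last without overlap (log2 difference -0.48, edgeR adjusted p = 0.593). Of 7 MHC class II genes, 1 was positive and the median was -0.30. Cd74 was at 15325, 15470 and 16671 against 13934 and 12656 CPM (-0.32, edgeR adjusted p = 0.528), and without mixed cells its difference was -0.14. Of 17 immediate early genes, which respond within minutes to signals and to tissue digestion, 14 were positive with a median of 0.24 and none passed. Fos was at 1196, 1337 and 1181 against 1559 and 1769 CPM, and Nr4a1 at 29.5, 63.6 and 34.0 against 70.8 and 175 CPM (log2 difference 1.65, edgeR adjusted p = 0.178). Of 13 glycolysis genes 11 were positive (median 0.16), of 18 lysosome genes 5 (median -0.05), of 11 complement genes 6 (median 0.09) and of 13 chemokines 8 (median 0.08), and none of these passed. The complement list is led by C1qa, C1qb and C1qc, genes of the rule, so its count is in part a description only. Of 11 cell cycle genes 9 were positive with a median of 1.96, and 2 passed, Mki67 and Cenpf.

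Secreted signals were uneven between libraries. Il1b was at 144, 209 and 167 CPM in controls and 314 and 43.3 CPM in Dsp_het 2 and 3, on either side of the controls. Ccl8 was at 333, 286 and 470 against 26.6 and 341 CPM. Ccl2 was at 395, 336 and 463 against 359 and 258 CPM, and Ccl4 at 132, 199 and 105 against 301 and 153 CPM. Groups overlapped in all 4. Il10, an anti-inflammatory cytokine, had no UMI, a limit of 1.19 CPM for a count of 0. Hmox1, heme oxygenase, was at 305, 172 and 183 against 1226 and 150 CPM. Of its 734 UMIs, 229 came from 1 mixed Dsp_het 2 cell, and without mixed cells its log2 difference turned from 1.53 to -0.22.

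In macrophages free of mixed cells, 17 of 5680 genes were higher (0.299%) and 1 lower (0.0176%). The 17 again held the cell division genes, Top2a and Prc1 among them, and the lower gene was Retnla. When cycling cells and cells of any other rule were also left out, a choice made after the data had been seen, 182 macrophages remained (46, 32 and 53 in controls and 2, 14 and 35 in Dsp_het). There, 1 of 5491 genes was higher (0.0182%) and 1 was lower (0.0182%). The lower gene was Retnla, at 2032, 1974 and 4207 CPM in control 1, 2 and 3 and 955 and 316 CPM in Dsp_het 2 and 3, a log2 change of -2.27 ± 0.37 (SE; edgeR adjusted p = 0.0247). The higher gene was Ccl3, a chemokine of inflammation, at 67.7, 159 and 67.1 against 477 and 253 CPM, a log2 change of 1.81 ± 0.33 (edgeR adjusted p = 0.0495). In both genes Dsp_het 2 and 3 lay beyond every control, and Dsp_het 1, with 2 cells, had no UMI.

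Both changes rested on few cells and did not hold in every fit. Retnla had at least 10 UMIs in 9, 5 and 7 of these control cells and in 2 and 4 Dsp_het cells, and 1 control 3 cell held 863 of the 2195 UMIs of its library. Ccl3 had a UMI in 9, 6 and 13 control and 7 and 11 Dsp_het cells. DESeq2 and the fit with a replicate block each called 0 genes in these 182 cells. Retnla lost its call without control 2, control 3 or Dsp_het 3 (edgeR adjusted p up to 0.298), and Ccl3 without control 1, control 3 or Dsp_het 2 (up to 0.653). Over these alternatives the log2 change kept its sign, between -3.21 and -1.58 for Retnla and between 1.35 and 2.30 for Ccl3. In all 220 macrophages Retnla was at 1830, 1676 and 4632 against 1984 and 219 CPM, with overlap and a log2 difference of -1.42 (edgeR adjusted p = 0.701), and Ccl3 at 61.0, 151 and 66.6 against 363 and 179 CPM (log2 difference 1.47, edgeR adjusted p = 0.34). Xist, the RNA of the inactive X chromosome of females, reached 763 CPM (control 3) and 722 CPM (Dsp_het 2) and had no UMI in macrophages of the remaining libraries. With this as a covariate for library sex, Retnla was called lower in all macrophages, at -2.22 (edgeR adjusted p = 0.000325).

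**Figure D5:**
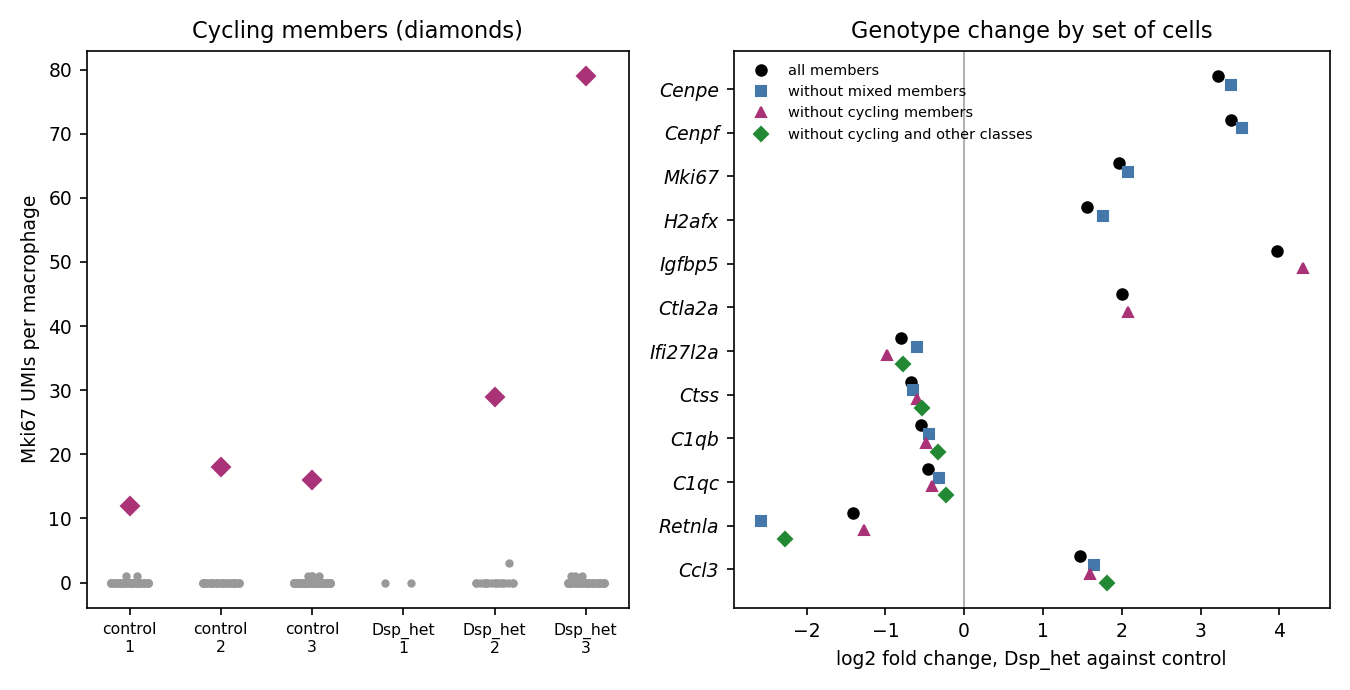
Left, Mki67 UMIs (vertical axis) of every macrophage by library, with diamonds for the 5 cycling cells at 12 to 79 UMIs. Right, log2 fold change of Dsp_het against control (horizontal axis) of 12 genes in all macrophages, without mixed cells, without cycling cells, and without cycling cells and cells of any other rule. C1qb and C1qc among them are genes of the selection and are shown without a test. A missing point means that the gene was too low to be tested in that set, as the cell division genes are without cycling cells.

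The genotype change was also compared directly with that in endothelial-rule cells of the same libraries, in 1 model with a term for cell type and genotype together and each library as its own block. It passed for 17 of 11740 genes (0.145%), 12 with a higher and 5 with a lower change in macrophages. Cybb had the smallest p, with an interaction of -3.21 (log2; edgeR adjusted p = 0.0123). In macrophages it was at 645, 561 and 429 CPM in controls and 456 and 487 CPM in Dsp_het 2 and 3, while in endothelial-rule cells it had 1, 3 and 4 UMIs against 13 and 18. The log2 change was -0.27 in macrophages and 2.95 in endothelial-rule cells, the latter from these trace counts. Dsp_het 1, which was not in the fit, had 1 UMI in 1982 endothelial-rule cells (0.143 CPM), within the 0.121 to 0.558 CPM of the controls. Ltc4s, leukotriene C4 synthase, was at 561, 368 and 544 against 359 and 368 CPM in macrophages and at 31.8, 26.6 and 21.99 against 45.6 and 48.9 CPM in endothelial-rule cells (interaction -1.40, edgeR adjusted p = 0.0123). Ctla2a had an interaction of 2.01 (edgeR adjusted p = 0.0123), which was 0.31 without mixed cells and did not pass.

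Several other interactions rested on 1 cell or on the cycling cells. Igfbp5 and Gm12840, with most UMIs in the epicardial-rule cell given above, had interactions of 2.77 and 3.15 (edgeR adjusted p = 0.0235 and 0.0457). Plvap and Npr3, genes of fenestrated and endocardial endothelium, and the imprinted RNA H19 had 27 of 36, 46 of 56 and 39 of 39 UMIs in 1 mixed Dsp_het 3 cell of 31533 UMIs. Acta2, smooth muscle actin, had 40 of 41 in 1 mixed control 3 cell. Ube2c, Cenpf, Kpna2 and H2afx, genes of cell division, had interactions of 3.19, 3.08, 3.20 and 1.62. Without mixed and cycling cells, Ube2c and Cenpf turned to -4.66 and -0.35, and Cenpf is among the genes that define cycling cells. The replication-dependent histones Hist1h2ap and Hist1h1b were lower in Dsp_het macrophages relative to endothelial-rule cells (-3.22 and -3.36), and Hist1h2ap turned to 0.37 without mixed and cycling cells.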

How the data were processed

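The authors deposited whole-number UMI counts per gene and barcode, with a cell table that also holds the totals. The submitters' processing notes name GRCm38 and Seurat, and for the aligner and counter the sources used here give no name. Barcode suffixes were matched to samples by the number in the labels. Depth ranged from 7573157 to 17083660 UMIs a library. Member counts were summed per library, for libraries with at least 10 members, and tested with edgeR 4.0.16 (R 4.3.3; quasi-likelihood, TMM, filterByExpr with a minimum count of 10, Benjamini-Hochberg, adjusted p under 0.05), with DESeq2 1.42.0 as an alternative. Shares were tested with exact permutations (scipy 1.17.1), two-sided. No doublet caller was run; mixed cells were given apart and left out in alternatives.

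The members and gene lists were chosen with earlier results of these data known, and the genes shown in divisions of the macrophages were chosen after their values were seen. Genes named in the genotype comparison were the called ones, the top 5 by p on either side where fewer than 10 were called, and a fixed list of macrophage genes. On simulated counts, 60 of 200 genes changed by a fold of 2 were recovered, with 11 false calls among 5769 genes, and 171 of 200 at a fold of 4, with 17 false calls among 5669. Alternatives covered the marker number, repeats, depth, mitochondrial share, normalization, filter, library sex and each left-out replicate.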

Additional observations from a re-analysis of the deposited data

Results flagged for a closer look

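For 17 genes the genotype change in macrophages differed from that in endothelial-rule cells of the same libraries by the test of the difference itself (edgeR, adjusted p between 0.0123 and 0.0461). The difference (log2, macrophages minus endothelial-rule cells) was -3.21 for Cybb, -3.22 for Hist1h2ap, 2.01 for Ctla2a, -1.40 for Ltc4s, 3.19 for Ube2c, 3.08 for Cenpf, 3.20 for Kpna2, 1.62 for H2afx, 1.57 for Eng, -3.36 for Hist1h1b, 1.81 for Nr4a1, 2.77 for Igfbp5 and 3.15 for Gm12840. For Plvap, Npr3, H19 and Acta2 the fitted values of 9.85, 10.41, 10.03 and -10.20 come with counts of 0 in the macrophages of most libraries, depend on the prior count and give no size of a change. Eng, an endothelial receptor of the TGF-beta family, was at 25.6, 47.7 and 60.1 CPM in control and 146 and 159 CPM in Dsp_het 2 and 3 macrophages, and its difference was 0.16 without mixed cells. Eng belongs to the endothelial rule that defines both endothelial-rule and mixed cells. The smaller difference without mixed cells thus follows in part from that rule. Nr4a1, an immediate early transcription factor, was at 29.5, 63.6 and 34.0 CPM in control and 70.8 and 175 CPM in Dsp_het macrophages, and at 43.2, 41.7 and 24.6 against 32.3 and 27.9 CPM in endothelial-rule cells. Its difference was 1.63 without mixed and cycling cells (edgeR adjusted p = 0.00769) and 0.76 without Dsp_het 3, where it did not pass. Hist1h2ap was at 122, 217 and 37.9 against 31.0 and 17.0 CPM in macrophages.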

How the results depend on the processing

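The log2 ratio of the macrophage share kept its direction in 12 of 14 alternatives and turned to 0.34 with repeats included and to 0.24 without Dsp_het 1. Leaving out 1 library gave -1.87 to 0.24, and the lowest value was without Dsp_het 3.

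The 7 genes called higher became 0 with at least 3 markers, 0 with at least 5, 11 with repeats, 17 without mixed cells, 105 with no filter, 28 with library sex as a covariate and 12 with the replicate block. At 0 calls, 337 (3 markers) and 378 (5 markers) genes had an unadjusted p under 0.05. Leaving out 1 library gave 0 to 36: 0 without control 1, 0 without control 2, 36 without control 3, 22 without Dsp_het 2 and 9 without Dsp_het 3. The 1 gene called lower became 0 with at least 3 or 5 markers, 35 with no filter and 9 with sex, and 0 to 5 without 1 library. In alternatives chosen after the data had been seen, all 6 libraries gave 25 higher and 8 lower, no cycling cells 0 and 0, no mixed or cycling cells 3 higher, and no cells of any other rule 1 higher. The 17 interactions became 11 with DESeq2's size factors, 70 without mixed cells, 110 with no filter, 53 without mixed and cycling cells, and 14 to 130 without 1 library. The 0 separated marker shares became 2 without thinning, 1 at 1000 UMIs, 2 without mixed cells, 0 to 3 without 1 library and 1 with the replicate block. The causes were not tested.

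Single genes turned sign as follows (log2). Without mixed cells, Hmox1 was -0.22, Fabp4 -0.045, and the interactions of Plvap and H19 -0.66 and -0.62. Without mixed and cycling cells, Hmox1 was -0.17, Csf1r 0.046, Timd4 0.029, H2-Aa 0.038, H2-Eb1 0.0049, Fabp4 -0.069, and the interactions of Hist1h2ap 0.37, Plvap -0.63, Ube2c -4.66, Cenpf -0.35 and H19 -0.60. Without cells of any other rule, Hmox1 was -0.15, Csf1r 0.059, Timd4 0.087, H2-Aa 0.051, H2-Eb1 0.014 and Fabp4 -0.14. With 1 library left out, Hmox1 ranged from -0.64 (without Dsp_het 2) to 2.40, Csf1r up to 0.095 (without Dsp_het 2), Il1b from -2.07 to 0.79 (without Dsp_het 3), Lyve1 from -0.013 (without control 2) to 0.31 and Cd163 from -0.80 (without Dsp_het 3) to 0.43, with -0.18 without control 2 and -0.07 without control 3. The interaction of Npr3 was -0.35 without Dsp_het 3, and Ccl4 was -0.29 with repeats. Cd163 was also -0.018 with at least 3 markers, -0.046 with no filter, -0.024 in DESeq2 and -0.065 with all 6 libraries.

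Deviations of same-numbered libraries from their group mean correlated at 0.011 and -0.025. With 2 Dsp_het libraries these deviations are mirror images, so control 2 was at 0.011 with Dsp_het 2 and -0.011 with Dsp_het 3. Such values cannot show whether the numbers are pairs. The labels give no batch, and the numbers were not taken as pairs. The replicate block gave p = 0.75 for the share (exact permutation). Few macrophages in Dsp_het 1 and 2 (2 and 20) limit every genotype comparison.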
